A study of Mus musculus with 15 samples.

Results

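Chemokines and chemokine receptors were taken by name: every gene of the count table whose symbol consists of Ccl, Cxcl, Cx3cl, Xcl, Ccr, Cxcr, Cx3cr or Xcr followed by a number and at most 1 letter. The rule found 58 of the 26264 genes, of which 40 encode ligands and 18 encode receptors. In total over the 15 libraries, 43 of the 58 had 10 or more counts (28 ligands and 15 receptors), 15 had fewer, and 5 of those 15 had no count (Ccl21c, Ccl21d, Ccl26, Ccr8 and Cxcl3). The filter on low counts kept 26 of the 58 for testing, 18 ligands and 8 receptors, so that 17 genes with 10 or more counts were described without a test. Counts below refer to the 26 tested genes and not to the whole family.

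The study measured polyadenylated RNA in mouse liver in 5 groups of 3 libraries, in a study of the fatty liver disease that goes with metabolic dysfunction. SD-NS and HFD-NS carry no agent in their names, HFD-Res received resmetirom, which activates the liver's thyroid hormone receptor (the beta form), and HFD-337 carries the number of Gc337, the antisense agent against the kinase gene Stk25. HFD stands for the high-fat diet. SD, NS and the number 338 are not spelled out in the labels, no control oligonucleotide is named, and strain, sex, age, dose and duration are not given in the sources used here. The sample titles carry different numbers, but nothing says in words that each library is a separate animal, so p-values measure only the spread between these samples.

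Chemokines are small secreted proteins that steer leukocytes along concentration gradients, and they act through receptors coupled to inhibitory G proteins. In the liver, Kupffer cells, sinusoidal endothelium, stellate cells, bile duct cells and hepatocytes can all release them, whereas most of the receptors are carried by the arriving leukocytes. Ligands of Ccr2 draw monocytes, ligands of Cxcr2 draw neutrophils, and the interferon-induced ligands of Cxcr3 draw activated T and natural killer cells. In whole liver RNA, fewer cells of a type and less RNA per cell cannot be told apart.

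Total counts per library ran from 3873903 to 9797743, and 1 count corresponded to 0.105 to 0.281 CPM (TMM-scaled counts relative to library size). Stk25 averaged 50.6 CPM in SD-NS, 46.5 in HFD-NS, 21.5 in HFD-338, 17.5 in HFD-337 and 42.0 in HFD-Res; it was lower than in HFD-NS in both HFD-338 (-1.11 on the log2 scale, edgeR adjusted p = 6.41e-07) and HFD-337 (-1.40, edgeR adjusted p = 3.8e-08). The hepatocyte markers fixed for the tissue check, among them Alb and Apoa1, summed to 81800 to 135000 TPM (counts per exon length, relative to the library) in the 15 libraries, and 8 of 8 had counts in every group. HFD-337 replicate 23 lay at 38.6 on the first principal component of all tested genes, against 7.27 and 6.45 for the other libraries of its group. Values that rest on it are given without it as well.

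Promoter sequences were searched because several ligands that moved together are textbook targets of interferon and of NF-kappaB. The RefSeq table (GRCm38.p6) holds promoters from 250 bases before to 50 bases after the transcription start for 42 of the 58 genes, 31 of them with 10 or more counts. It has no entry for Ccl2, Ccl5, Cxcl11 or Cxcl16. The core of the interferon-stimulated response element, searched on both strands as GAAA and GAAA with any 2 bases (NN) between them, was found in 3.44% of all 32851 promoters and in 3 of the 49 promoters of these genes (Ccl19, Cxcl10 and Cxcl14). A subset of the NF-kappaB site, GGGA and TTCC with any 2 bases (NN) between them, was found on either strand in 1.47% of all promoters and in 6 of the 49 (Ccl1, Ccr3, Cxcl1, Cxcl2, Cxcl3 and Cxcl10). The 2 motifs overlapped in none of them.

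The upstream stretches of 4 ligands of chromosome 5 are shown because Cxcl10, Cxcl1 and Cxcl2 rose on the diet while Cxcl3, which holds the same letters, had no count in any library. They are the 250 bases before each start, 5′ to 3′ along the gene, at chr5:92348890-92349139 (minus strand), chr5:90890995-90891244, chr5:90903649-90903898 and chr5:90785851-90786100 (plus strand) of GRCm38.p6, with capitals marking the motif matches. 
Cxcl10: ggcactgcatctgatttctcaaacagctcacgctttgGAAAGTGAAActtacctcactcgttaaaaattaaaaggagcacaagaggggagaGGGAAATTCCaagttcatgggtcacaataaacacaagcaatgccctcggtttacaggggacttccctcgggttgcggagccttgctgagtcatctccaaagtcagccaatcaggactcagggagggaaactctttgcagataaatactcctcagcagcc 
Cxcl1: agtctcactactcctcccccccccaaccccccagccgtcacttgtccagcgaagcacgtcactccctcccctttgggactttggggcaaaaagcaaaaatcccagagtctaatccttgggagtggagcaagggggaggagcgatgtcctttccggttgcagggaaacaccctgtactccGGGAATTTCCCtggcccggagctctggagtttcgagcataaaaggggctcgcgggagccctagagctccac 
Cxcl2: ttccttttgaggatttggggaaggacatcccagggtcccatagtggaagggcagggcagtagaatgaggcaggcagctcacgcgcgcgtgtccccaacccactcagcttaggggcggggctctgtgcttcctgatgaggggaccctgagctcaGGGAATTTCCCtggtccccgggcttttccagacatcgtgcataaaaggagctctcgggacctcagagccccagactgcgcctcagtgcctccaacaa 
Cxcl3: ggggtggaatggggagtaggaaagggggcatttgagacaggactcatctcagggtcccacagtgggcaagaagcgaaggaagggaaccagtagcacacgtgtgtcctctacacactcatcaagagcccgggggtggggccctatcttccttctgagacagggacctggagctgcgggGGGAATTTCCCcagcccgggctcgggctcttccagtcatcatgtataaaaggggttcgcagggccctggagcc

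In Cxcl10 the first capitals, 213 bases before the start, are the interferon element core and the second, 159 bases before, the NF-kappaB letters. In Cxcl1, Cxcl2 and Cxcl3 the capitals are a near-palindrome of NF-kappaB letters that matches on both strands, starting 71, 97 and 73 bases before the start. Cxcl9, which also rose on the diet, held neither motif in this window. A match is a description of letters and does not show that a factor binds there.

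Cxcl12, the homeostatic ligand of Cxcr4, was the most abundant of these transcripts per unit of length in SD-NS, HFD-NS, HFD-338 and HFD-Res. Its level was 87.4 ± 2.20 TPM (SD, n = 3) in SD-NS, 83.1 ± 9.63 in HFD-NS, 89.0 ± 8.32 in HFD-338, 58.3 ± 14.2 in HFD-337 and 82.1 ± 16.3 in HFD-Res. It made up 50.3% to 54.4% of all ligand TPM in SD-NS, 25.7% to 32.0% in HFD-NS, 18.9% to 27.9% in HFD-338, 13.6% to 20.4% in HFD-337 and 34.1% to 46.0% in HFD-Res. In HFD-337 only Cxcl1, at 133 ± 135 TPM, had a higher mean, with its libraries at 289 TPM (replicate 23), 42.7 and 68.5.

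Receptor transcripts were much scarcer than ligand transcripts. The 18 receptors summed to 6.12, 5.72 and 11.8 TPM in SD-NS and to 14.8, 25.9 and 18.2 in HFD-NS. They summed to 63.3, 62.5 and 45.5 TPM in HFD-338, 24.9, 11.9 and 14.7 in HFD-337, with HFD-Res at 10.6, 12.5 and 13.3. All 3 HFD-338 libraries thus lay above all 12 others. Among the 43 genes with 10 or more counts, 26 had their highest group mean in HFD-338, 13 ligands and 13 of the 15 receptors. That is 60.5%, where 28.1% of the 16150 genes with 10 or more counts had their highest mean in that group. A few genes reached 10 counts through HFD-338 itself: it held 19 of the 20 counts of Ccl20 and 26 of the 29 of Ccl21a, and 6 of 12 each for Ccl8 and Ccr3. The tally is a description and not a test. HFD-337 held the highest mean of 7, SD-NS of 5, HFD-NS of 4 and HFD-Res of 1.

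**Figure D1:**
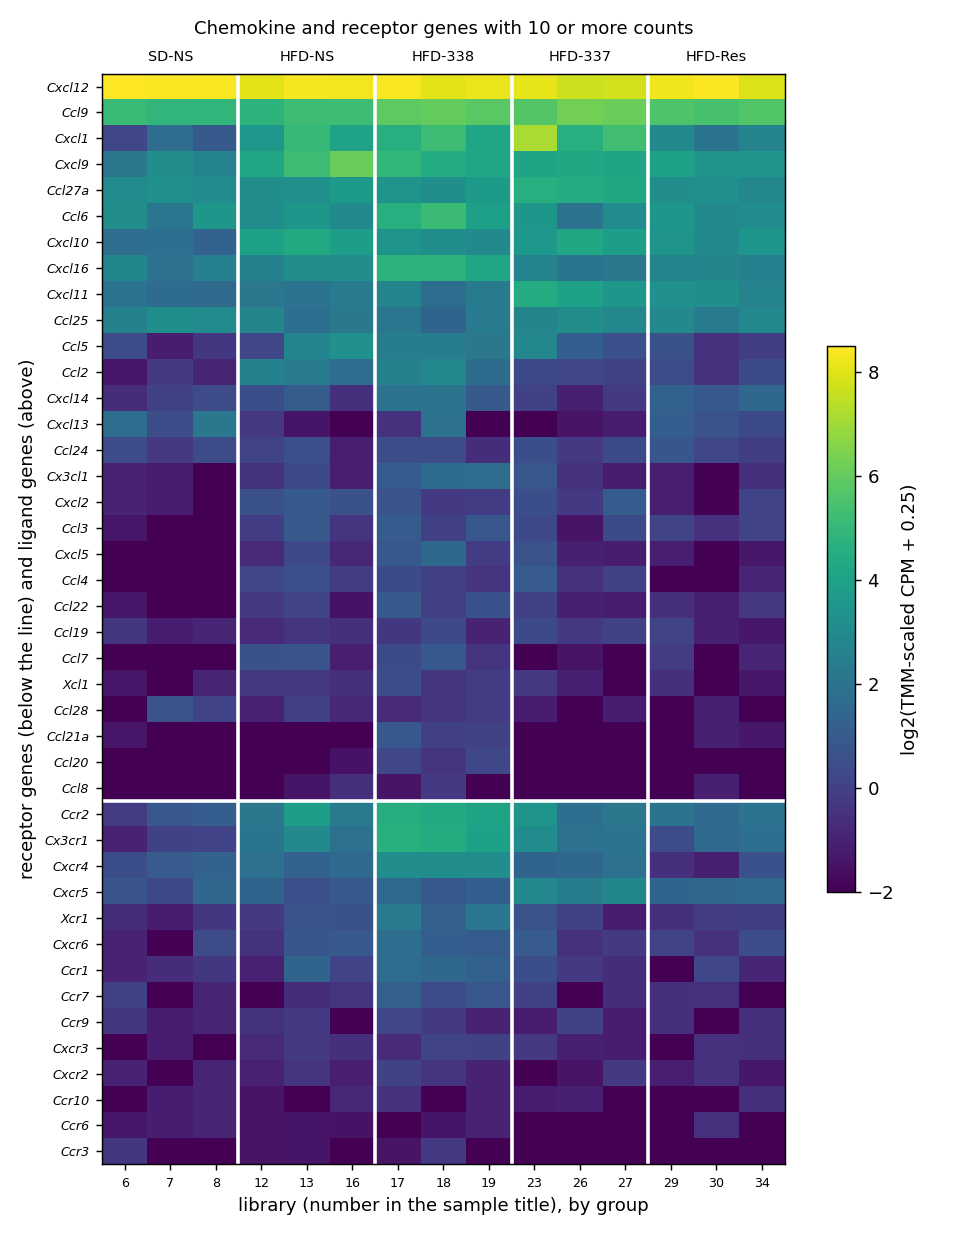
Levels of 42 chemokine and receptor genes with 10 or more counts, as log2 of TMM-scaled CPM plus 0.25, with 1 column per library (number in the sample title) and ligands above receptors, each ordered by abundance. The receptor block is brightest in the 3 HFD-338 libraries, and the Cxcl1 cell of HFD-337 replicate 23 stands out at 143 CPM.

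A gene was called at a Benjamini-Hochberg adjusted p under 0.05 in edgeR's quasi-likelihood test over all 13189 genes tested. In HFD-NS against SD-NS, 11 of the 26 tested chemokine and receptor genes rose and 1 fell, and their median log2 fold change was 1.48 against -0.02 for all genes. Over all genes, 28.1% were called, 12% higher and 16.1% lower in HFD-NS. Leaving out 1 library gave 7 to 14 calls among the 27 then tested, with 7 in the fits lacking SD-NS replicate 6, SD-NS replicate 7 or HFD-NS replicate 13.

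In HFD-338 against HFD-NS, 10 of 26 rose and 1 fell (median 0.87), where 36.8% of all genes were called, 18.9% higher and 17.9% lower. HFD-338 held 89 of the 148 counts of Xcr1, 64 of the 118 of Ccr1 and 64 of the 98 of Cx3cl1. These genes thus passed the filter largely through HFD-338, and counts of calls against that group are partly shaped by the filter. In HFD-337 against HFD-NS, 5 rose and 5 fell (median -0.37), a share of 38.5% that was below the 47.2% of all genes called, 24.4% higher and 22.8% lower. In HFD-Res against HFD-NS, 2 rose and 4 fell (median -0.62), where 13% of all genes were called, 6.22% higher and 6.74% lower. These 3 comparisons and the diet comparison share the HFD-NS libraries. In HFD-337 against HFD-338, 5 were higher and 13 lower (median -1.47), where 58.4% of all genes were called, 28.8% higher and 29.6% lower.

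**Figure D2:**
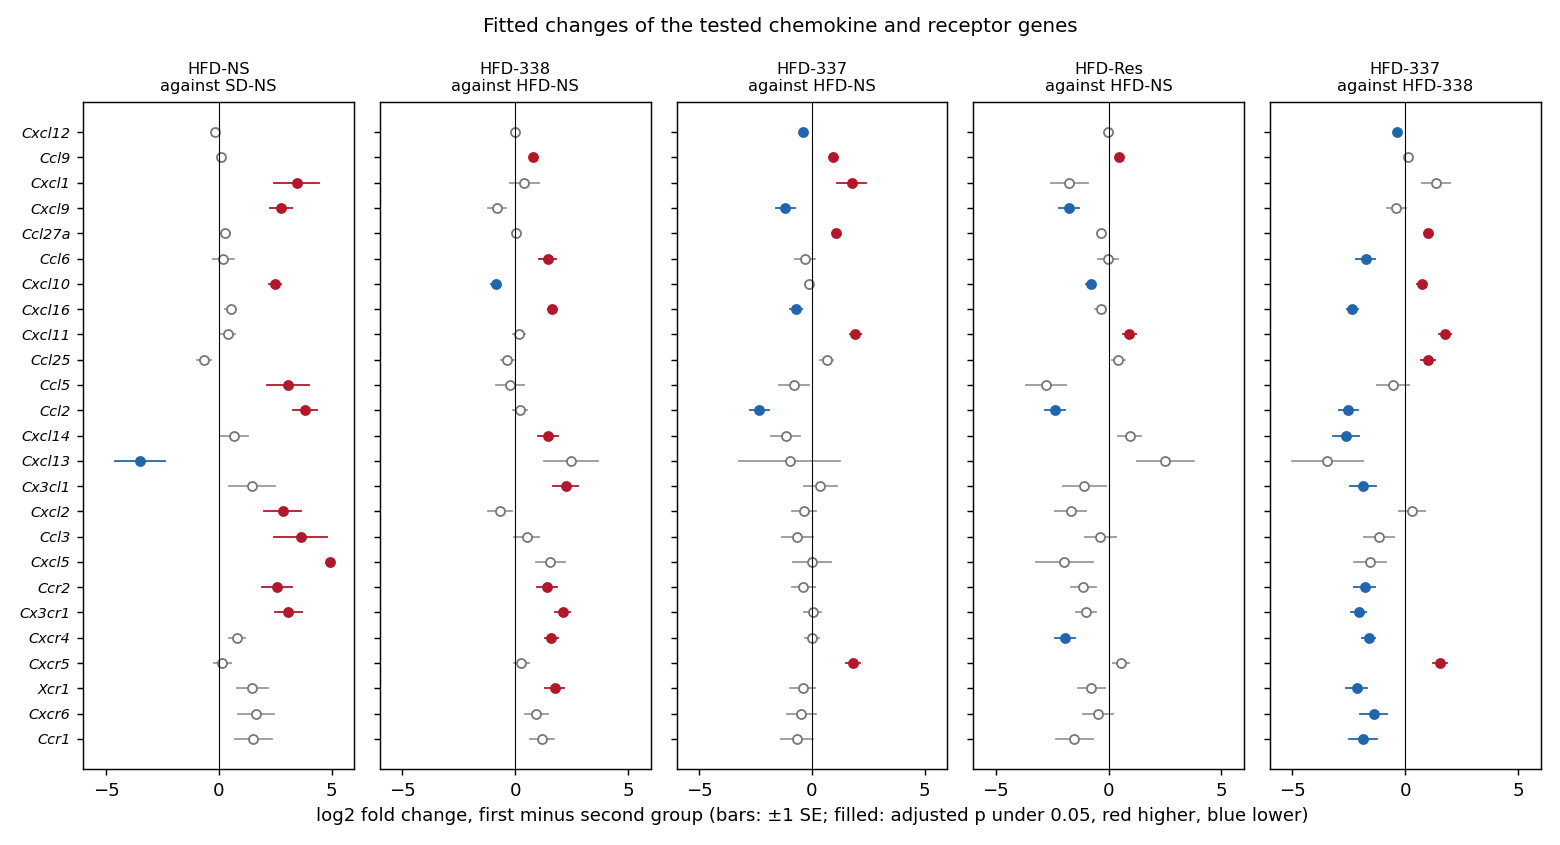
Fitted log2 fold changes of 25 tested genes in the 5 comparisons, with bars of 1 SE and points filled where the adjusted p was under 0.05 (red higher, blue lower in the first group named). Cxcl5 has no bar on the diet, because SD-NS had no count. In HFD-337 against HFD-338 all 7 receptors drawn are filled, and all but Cxcr5 are blue.

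Ccl2, the main ligand of Ccr2 and a monocyte attractant made by macrophages, stellate cells and injured hepatocytes, was near 0 in SD-NS, high in HFD-NS and HFD-338, and low in HFD-337 and HFD-Res. Its libraries read 0.133, 0.583 and 0.281 CPM in SD-NS, 5.84, 4.97 and 3.16 in HFD-NS, 5.82, 7.05 and 3.01 in HFD-338, 0.985, 0.922 and 0.812 in HFD-337, as against 1.07, 0.460 and 1.02 in HFD-Res. The 3 libraries of HFD-337 and the 3 of HFD-Res lay below every library of HFD-NS and HFD-338. The rise on the diet was 3.82 ± 0.54 on the log2 scale (edgeR adjusted p = 3.9e-05). Against HFD-NS it fell by 2.33 ± 0.42 in HFD-337 (edgeR adjusted p = 0.000153) and by 2.38 ± 0.44 in HFD-Res (edgeR adjusted p = 0.000799). These calls held without any single library and in each other setting tried. Without SD-NS replicate 7 the rise on the diet was 4.54.

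Ccl7, another ligand of Ccr2 that lies next to Ccl2 on chromosome 11, was too low for the main test. It read 0, 0 and 0 CPM in SD-NS, 1.28, 1.37 and 0.211 in HFD-NS, 1.03, 1.61 and 0.524 in HFD-338, 0, 0.115 and 0 in HFD-337, while HFD-Res had 0.642, 0 and 0.291. The mean of HFD-NS was at least 5.15-fold higher than that of SD-NS, taking 3 counts over the group as its floor. Without the filter on low counts, Ccl7 was called higher on the diet (edgeR adjusted p = 0.00512) and lower in HFD-337 than in HFD-NS (edgeR adjusted p = 0.0064). Ccl12, which shares this receptor, had 4 counts in all, and Ccl8, which lies near it, had 12.

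Cxcl1, Cxcl2 and Cxcl5, ligands of Cxcr2 on neutrophils, all rose on the diet. Cxcl1 read 0.932, 3.11 and 1.69 CPM in SD-NS, 11.9, 32.2 and 16.2 in HFD-NS, 24.3, 36.4 and 18.5 in HFD-338, 143, 23.7 and 38.8 in HFD-337, with HFD-Res at 7.71, 3.91 and 6.25. The SD-NS libraries lay below all others, and 1 library of HFD-337, replicate 23, stood far above the other two of its group. The rise on the diet was 3.45 ± 1.01 on the log2 scale (edgeR adjusted p = 0.0267). It was lost without SD-NS replicate 6, 7 or 8 or without HFD-NS replicate 13, where the edgeR adjusted p ran from 0.0624 to 0.109.

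Cxcl1 also rose in HFD-337 against HFD-NS, by 1.76 ± 0.63 on the log2 scale (edgeR adjusted p = 0.0419), with overlapping groups. Without HFD-337 replicate 23 the difference was 0.62 (edgeR adjusted p = 0.284). The call was lost too without HFD-NS replicate 12 (edgeR adjusted p = 0.127) or 16 (edgeR adjusted p = 0.115). It was lost as well without the filter on low counts, with limma-voom and in the fit of the 2 groups. In HFD-Res every library lay below every HFD-NS library, with a mean of 5.96 against 20.1 CPM, and the difference did not pass (edgeR adjusted p = 0.209).

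Cxcl2 read 0.266, 0.194 and 0 CPM in SD-NS, 1.28, 1.74 and 1.27 in HFD-NS, 1.37, 0.619 and 0.654 in HFD-338, 1.18, 0.576 and 1.83 in HFD-337, as against 0.214, 0 and 0.872 in HFD-Res. SD-NS and HFD-NS did not overlap, and the rise was 2.84 ± 0.83 on the log2 scale (edgeR adjusted p = 0.0119). Cxcl5 had no count in SD-NS and read 0.350, 0.993 and 0.316 CPM in HFD-NS, 1.60, 2.598 and 0.654 in HFD-338, 1.38, 0.231 and 0.203 in HFD-337, while HFD-Res had 0.214, 0 and 0.145. HFD-NS was at least 2.99-fold above SD-NS (edgeR adjusted p = 0.0472). Without any one of the SD-NS libraries or without HFD-NS replicate 13 or 16, the adjusted p of Cxcl5 ran from 0.0504 to 0.135.

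Of the receptors for these ligands, Cxcr2 had 32 counts in all and was not tested. Its libraries ran from 0 to 0.281 CPM in SD-NS, 0.211 to 0.497 in HFD-NS, 0.262 to 0.798 in HFD-338, 0 to 0.609 in HFD-337 and 0.145 to 0.460 in HFD-Res. The ranges of all 5 groups overlapped. Of the 8 neutrophil markers, 3 passed the filter on low counts and none was called in any comparison. The sum of all 8 ran from 6.67 to 63.2 TPM in 14 libraries and reached 683 TPM in 1 library of HFD-338.

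Cxcl9, Cxcl10 and Cxcl11 are the interferon-induced ligands of Cxcr3. They lie side by side on chromosome 5 (92469190 to 92511155 in mm39). Cxcl9 read 4.26, 8.56 and 6.19 CPM in SD-NS, 17.9, 36.9 and 69.2 in HFD-NS, 31.1, 21.9 and 18.3 in HFD-338, 17.3, 19.7 and 17.3 in HFD-337, with HFD-Res at 15.8, 10.8 and 10.8. HFD-NS spread widely, and its lowest library lay within the range of HFD-337 and below all of HFD-338. The rise of Cxcl9 on the diet was 2.75 ± 0.50 on the log2 scale (edgeR adjusted p = 0.00208) and held without any single library; it was 2.14 without HFD-NS replicate 16.

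Cxcl9 fell in HFD-337 by 1.19 ± 0.42 on the log2 scale (edgeR adjusted p = 0.0372) and in HFD-Res by 1.74 ± 0.45 (edgeR adjusted p = 0.0255). The call in HFD-337 was lost without HFD-NS replicate 13 or 16 or any one of the 3 HFD-337 libraries, with an edgeR adjusted p of 0.0574 to 0.148. It was also lost without the filter on low counts, with limma-voom and in the fit of the 2 groups. Without HFD-NS replicate 16, the highest library, the difference was -0.59 in HFD-337 and -1.14 in HFD-Res. The call in HFD-Res was lost without replicate 30 (edgeR adjusted p = 0.088) or 34 of that group (edgeR adjusted p = 0.11). Limma-voom and the fit of the 2 groups lost it too. The difference in HFD-338 did not pass (-0.80 ± 0.40, edgeR adjusted p = 0.145).

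Cxcl10 read 3.20, 3.31 and 2.25 CPM in SD-NS, 15.9, 20.6 and 14.7 in HFD-NS, 10.7, 9.15 and 7.85 in HFD-338, 11.8, 19.5 and 14.4 in HFD-337, as against 10.5, 7.59 and 11.2 in HFD-Res. All HFD-NS libraries lay above all of SD-NS, HFD-338 and HFD-Res, and they overlapped HFD-337. Its diet rise was 2.49 ± 0.25 on the log2 scale (edgeR adjusted p = 1.33e-06). Against HFD-NS, Cxcl10 fell by 0.87 ± 0.19 in HFD-338 (edgeR adjusted p = 0.00167) and by 0.78 ± 0.20 in HFD-Res (edgeR adjusted p = 0.0137). The call in HFD-Res was lost without HFD-NS replicate 13 (edgeR adjusted p = 0.0817) or HFD-Res replicate 30 (edgeR adjusted p = 0.0781). Its difference in HFD-337 was -0.13 ± 0.19 (edgeR adjusted p = 0.591).

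Cxcl11 had its highest level in HFD-337. It read 3.73, 2.92 and 2.81 CPM in SD-NS, 4.20, 3.73 and 4.96 in HFD-NS, 6.39, 3.22 and 4.84 in HFD-338, 21.9, 15.9 and 11.6 in HFD-337, while HFD-Res had 9.63, 9.20 and 6.25. HFD-337 lay above every library of the other groups, and HFD-Res above every library of HFD-NS. It rose by 1.93 ± 0.26 on the log2 scale in HFD-337 (edgeR adjusted p = 7.42e-06), a call that held without any single library. In HFD-Res it rose by 0.93 ± 0.28 (edgeR adjusted p = 0.0314). That call was lost without HFD-NS replicate 12 or 13 or without HFD-Res replicate 29 or 30, where the edgeR adjusted p ran from 0.0735 to 0.114.

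The receptor of these ligands, Cxcr3, had 40 counts in all and was not tested. It read 0, 0.194 and 0 CPM in SD-NS, 0.350, 0.621 and 0.422 in HFD-NS, 0.342, 0.866 and 0.785 in HFD-338, 0.591, 0.231 and 0.203 in HFD-337, with HFD-Res at 0, 0.460 and 0.436. HFD-NS lay above SD-NS, and the 4 high-fat groups overlapped. The 9 T or NK cell markers found in the table summed to 3.14 to 5.80 TPM in SD-NS, 2.98 to 15.6 in HFD-NS, 11.8 to 23.3 in HFD-338, 5.03 to 11 in HFD-337 and 4.84 to 7.01 in HFD-Res. Of the 3 tested, 1 rose on the diet, 1 fell in HFD-Res and 1 was lower in HFD-337 than in HFD-338. Over all genes, 12%, 6.74% and 29.6% did so. The part of T and NK cells in the changes of Cxcl9 and Cxcl10 was not tested.

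Ccl3, Ccl4 and Ccl5 are inflammatory CC ligands released by activated macrophages and lymphocytes. Ccl5, made chiefly by T and natural killer cells, read 1.07, 0.194 and 0.563 CPM in SD-NS, 0.934, 6.46 and 9.59 in HFD-NS, 5.13, 5.07 and 4.19 in HFD-338, 7.09, 1.96 and 1.22 in HFD-337, as against 1.29, 0.460 and 0.726 in HFD-Res. HFD-NS replicate 12 lay within the SD-NS range and the other two far above it. Its diet rise was 3.06 ± 0.93 on the log2 scale (edgeR adjusted p = 0.0259). It was lost without any one of the SD-NS libraries or without HFD-NS replicate 13 or 16, with an edgeR adjusted p of 0.0557 to 0.102. The difference in HFD-Res, at -2.77 ± 0.90, did not pass (edgeR adjusted p = 0.0609).

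Ccl3 read 0.133, 0 and 0 CPM in SD-NS, 0.701, 1.74 and 0.527 in HFD-NS, 1.82, 0.742 and 1.57 in HFD-338, 0.985, 0.115 and 1.02 in HFD-337, while HFD-Res had 0.856, 0.460 and 0.872. It rose on the diet by 3.63 ± 1.19 on the log2 scale (edgeR adjusted p = 0.0175), which was lost without SD-NS replicate 7 (edgeR adjusted p = 0.0724) or HFD-NS replicate 13 (edgeR adjusted p = 0.0763). The mean of Ccl4 was at least 5.06-fold higher in HFD-NS than in SD-NS, where it had no count, and it was called only without the filter (edgeR adjusted p = 0.00254). Ccl4 had 24 counts in HFD-NS.

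Cxcl16 and Cx3cl1 are the chemokines made as membrane-bound proteins, and they bind Cxcr6 and Cx3cr1. Cxcl16 (chromosome 11, 70345215 to 70350810 in mm39) read 6.79, 3.50 and 5.63 CPM in SD-NS, 5.84, 8.94 and 8.64 in HFD-NS, 27.5, 27.3 and 18.2 in HFD-338, 6.30, 4.03 and 4.26 in HFD-337, with HFD-Res at 6.42, 6.67 and 5.52. HFD-338 stood above every other library. The rise in HFD-338 was 1.64 ± 0.21 on the log2 scale (edgeR adjusted p = 1.16e-05) and held without any single library. In HFD-337 it fell by 0.71 ± 0.26 (edgeR adjusted p = 0.0305), a call lost without HFD-NS replicate 13 or 16 or HFD-337 replicate 26 or 27, with an edgeR adjusted p of 0.0687 to 0.141.

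Cxcl16 shares 30.4% of its exon length with Zmynd15, and a read in both exons was counted for both genes. Zmynd15 had 529 counts against 1079 for Cxcl16, and it rose in HFD-338 by 1.00 ± 0.21 on the log2 scale (edgeR adjusted p = 0.00117). The part of shared reads in the change of Cxcl16 was not tested. Cx3cl1 read 0.266, 0.194 and 0 CPM in SD-NS, 0.467, 0.993 and 0.211 in HFD-NS, 1.82, 2.97 and 3.14 in HFD-338, 1.58, 0.461 and 0.203 in HFD-337, as against 0.214, 0 and 0.436 in HFD-Res. HFD-338 lay above every other library, and the rise against HFD-NS was 2.24 ± 0.56 on the log2 scale (edgeR adjusted p = 0.00338), or 2.91 without HFD-NS replicate 13. Cx3cl1 passed the filter on low counts largely through HFD-338, which held 64 of its 98 counts.

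Ccl6 and Ccl9 are ligands of Ccr1 made by myeloid cells in the mouse, and their genes are neighbours on chromosome 11. Ccl6 read 8.79, 4.08 and 11.5 CPM in SD-NS, 8.52, 11.6 and 7.59 in HFD-NS, 24.1, 35.5 and 14.9 in HFD-338, 11.6, 3.80 and 8.12 in HFD-337, while HFD-Res had 11.1, 7.59 and 8.43. Every HFD-338 library lay above all others, and the rise was 1.44 ± 0.39 on the log2 scale (edgeR adjusted p = 0.0115). The edgeR adjusted p was 0.0504 without HFD-NS replicate 16 and 0.0509 without HFD-338 replicate 18.

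Ccl9 was among the more abundant ligands and was higher in all 3 of the other high-fat groups than in HFD-NS. It read 34.9, 29.9 and 29.8 CPM in SD-NS, 27.3, 38.1 and 38.1 in HFD-NS, 59.9, 64.6 and 55.5 in HFD-338, 50.8, 76.3 and 68.2 in HFD-337, with HFD-Res at 48.4, 43.2 and 49.98. All 9 of these libraries lay above all 6 of SD-NS and HFD-NS. The rises were 0.80 ± 0.14 on the log2 scale for HFD-338 (edgeR adjusted p = 0.000244), 0.92 ± 0.14 for HFD-337 (edgeR adjusted p = 3.65e-05) and 0.45 ± 0.15 for HFD-Res (edgeR adjusted p = 0.0448). The last call was lost without HFD-NS replicate 12 or any one of the HFD-Res libraries, with an edgeR adjusted p of 0.0562 to 0.19. DESeq2 and the fit without the filter on low counts lost it too.

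**Figure D3:**
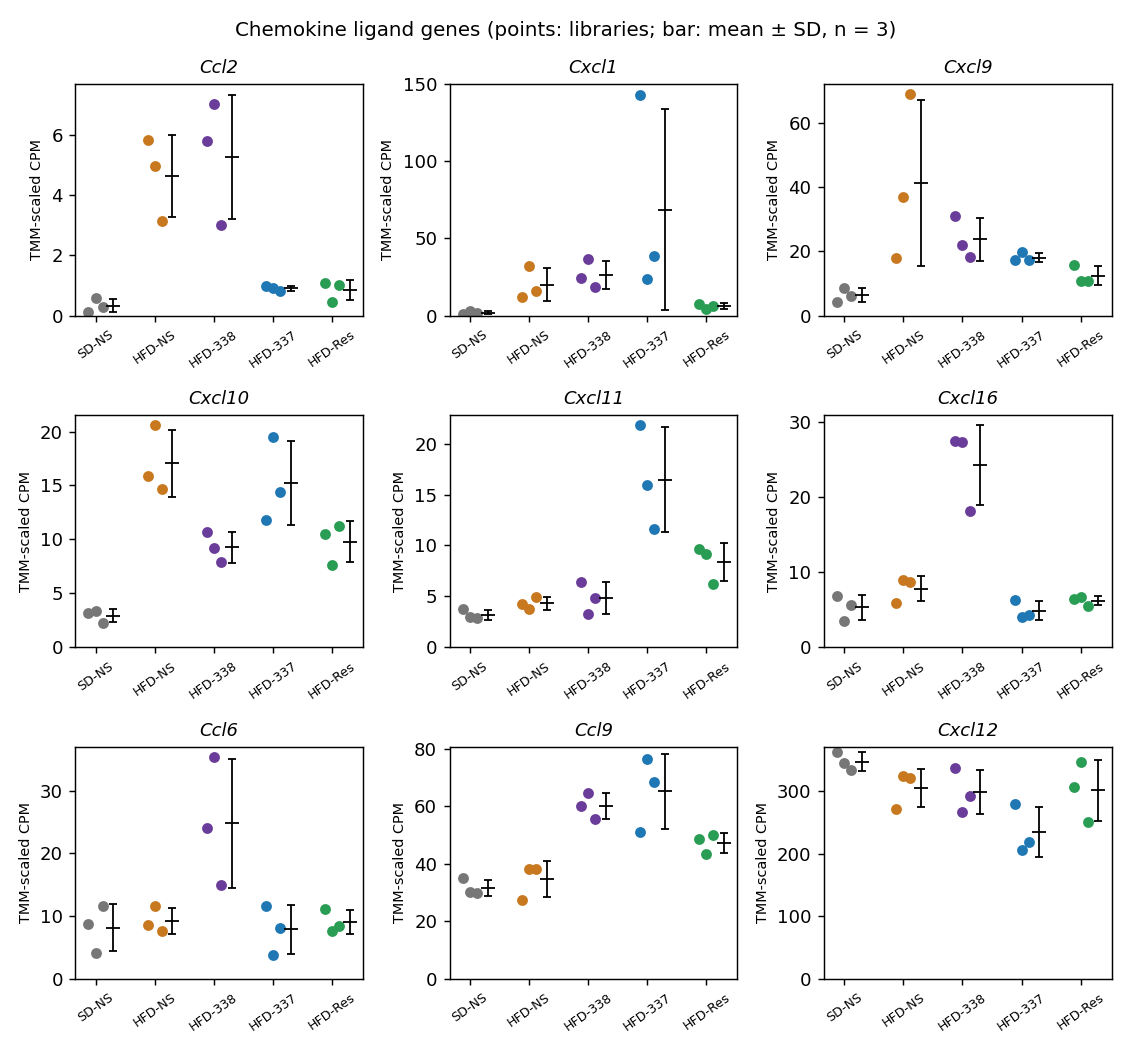
TMM-scaled CPM of 9 ligand genes, 1 point per library, with the mean and SD of 3 libraries beside each group (lower bars end at 0). Ccl2 is low in HFD-337 and HFD-Res, Cxcl11 is high in HFD-337, and Cxcl16 and Ccl6 are high in HFD-338.

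Cxcl12 itself read 363, 346 and 334 CPM in SD-NS, 271, 324 and 321 in HFD-NS, 336, 267 and 293 in HFD-338, 280, 206 and 218 in HFD-337, as against 307, 347 and 250 in HFD-Res. HFD-337 overlapped HFD-NS by 1 library, and it fell by 0.38 ± 0.13 on the log2 scale (edgeR adjusted p = 0.0242). The call was lost without HFD-NS replicate 13 or 16 or HFD-337 replicate 26 or 27, with an edgeR adjusted p of 0.0586 to 0.105. In the same comparison, 10 of 10 sinusoidal endothelial markers and 4 of 10 stellate cell markers fell, and both are cell types known to make Cxcl12. Over all genes, 47.2% were called and 22.8% fell. The 40% of stellate cell markers called, all of them lower, was below the first share and above the second. Endothelial markers summed to 56.9 to 72.3 TPM in HFD-337 and 181 to 236 in HFD-NS, and their part in the lower Cxcl12 was not tested.

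Ccl27a, known as a skin chemokine that binds Ccr10, read 8.12, 9.33 and 8.16 CPM in SD-NS, 8.87, 9.31 and 13.1 in HFD-NS, 10.5, 9.03 and 12.96 in HFD-338, 23.4, 21.8 and 19.7 in HFD-337, while HFD-Res had 8.99, 9.43 and 6.97. HFD-337 stood above all other libraries. It rose there by 1.05 ± 0.17 on the log2 scale (edgeR adjusted p = 5.45e-05), and the call held without any single library. Close copies of Ccl27a exist in this genome, so that its count is uncertain where reads fit more than 1 copy. Ccr10 had 18 counts in all and Ccr3, an eosinophil receptor, 12.

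Ccl25, the ligand of Ccr9, read 5.86, 9.14 and 8.16 CPM in SD-NS, 6.66, 3.35 and 4.43 in HFD-NS, 4.10, 2.35 and 4.84 in HFD-338, 6.70, 8.76 and 7.10 in HFD-337, with HFD-Res at 7.49, 4.60 and 7.26. HFD-337 lay above every library of HFD-338, a difference of 1.01 ± 0.29 on the log2 scale (edgeR adjusted p = 0.00624). Its difference from HFD-NS, where the groups did not overlap either, did not pass (0.66 ± 0.28, edgeR adjusted p = 0.0626). Ccr9 had 44 counts in all.

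Cxcl13, the ligand that guides B cells through Cxcr5, was the only one of the 26 genes that fell on the diet. It read 3.20, 1.17 and 4.22 CPM in SD-NS, 0.584, 0.124 and 0 in HFD-NS, 0.456, 3.59 and 0 in HFD-338, 0, 0.115 and 0.203 in HFD-337, as against 1.93, 1.38 and 1.02 in HFD-Res. It fell by 3.50 ± 1.12 on the log2 scale (edgeR adjusted p = 0.0278), or by 5.21 without HFD-NS replicate 12. It did not pass without SD-NS replicate 6 or 8 or HFD-NS replicate 13 or 16, with an edgeR adjusted p of 0.0725 to 0.0942. HFD-Res lay above HFD-NS in every library without passing (2.51 ± 1.27, edgeR adjusted p = 0.221).

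Cxcl14, an epithelial and stromal chemokine, read 0.399, 0.778 and 1.13 CPM in SD-NS, 1.17, 1.86 and 0.422 in HFD-NS, 3.76, 3.84 and 1.70 in HFD-338, 0.788, 0.231 and 0.609 in HFD-337, while HFD-Res had 2.14, 1.61 and 2.62. The rise in HFD-338 was 1.46 ± 0.45 on the log2 scale (edgeR adjusted p = 0.0153), with 1 HFD-NS library inside the HFD-338 range. It was lost without HFD-NS replicate 16 or HFD-338 replicate 17 or 18, with an edgeR adjusted p of 0.0655 to 0.0859.

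Ccl20 and Ccl21a were close to the detection limit and had most of their counts in HFD-338. Ccl20, the ligand of Ccr6, read 0.912, 0.495 and 0.916 CPM in HFD-338 and 0, 0 and 0.105 in HFD-NS, and it had no count in the other 9 libraries. Ccl21a, a ligand of Ccr7 whose exons coincide with those of the predicted copy Gm1987, read 1.60, 0.742 and 0.785 CPM in HFD-338 and had no count in HFD-NS or HFD-337. HFD-338 was at least 9.06-fold above HFD-NS and 6.48-fold above HFD-337. Without the filter, Ccl20 (edgeR adjusted p = 0.00575), Ccl21a (edgeR adjusted p = 0.000255) and the receptor Ccr7 (edgeR adjusted p = 0.0202) were called higher in HFD-338 than in HFD-NS. Ccr7 read 2.05, 1.11 and 1.57 CPM in HFD-338 and at most 0.799 in any other library. Ccr6, the receptor for Ccl20, had 11 counts in all, with single libraries from 0 to 0.460 CPM.

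The remaining ligands with 10 or more counts were Ccl19, Ccl22, Ccl24, Ccl28 and Xcl1, with 52, 59, 88, 36 and 43 counts in all. None was called in any comparison with HFD-NS or SD-NS, even without the filter. Ccl22, a ligand of Ccr4 made by dendritic cells and macrophages, was lower in HFD-337 than in HFD-338 in that setting (edgeR adjusted p = 0.0414). Below 10 counts lay Cxcl17 and Ccl17 with 7 each, Cxcr1 and Ccr4 with 6 each, Ccl12 with 4, Ccl27b with 3, Ccl11 with 2, and Ccl1, Ccl21b and Cxcl15 with 1 each.

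Among the receptors, 5 of the 8 tested rose in HFD-338 against HFD-NS and 0 fell, and 3 of 8 rose on the diet. Over all genes, 18.9% and 12% rose in these comparisons. Xcr1 and Ccr1 were among the 8 largely through their counts in HFD-338 itself. Ccr2, the receptor for Ccl2 on inflammatory monocytes, read 0.666, 1.56 and 1.97 CPM in SD-NS, 4.20, 14.3 and 4.64 in HFD-NS, 23.1, 21.2 and 16.4 in HFD-338, 10.6, 3.34 and 4.26 in HFD-337, with HFD-Res at 3.85, 2.76 and 3.78. HFD-338 lay above every other library, and HFD-NS above every SD-NS library. Its diet rise was 2.58 ± 0.68 on the log2 scale (edgeR adjusted p = 0.0135), and it was lost without SD-NS replicate 6 (edgeR adjusted p = 0.0775). Without HFD-NS replicate 13, the library with the most Ccr2 in its group, the diet rise was 1.80 and that in HFD-338 was 2.18. The rise in HFD-338 was 1.41 ± 0.44 (edgeR adjusted p = 0.0231), and it was lost without HFD-NS replicate 12 or 16 or HFD-338 replicate 17 or 18, with an edgeR adjusted p of 0.0629 to 0.0873.

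In HFD-337, where its ligand Ccl2 fell, Ccr2 differed from HFD-NS by -0.39 ± 0.50 (edgeR adjusted p = 0.556). Against HFD-338, Ccl2 was lower by 2.52 ± 0.42 on the log2 scale (edgeR adjusted p = 4.72e-05) and Ccr2 was lower too (-1.80 ± 0.47, edgeR adjusted p = 0.00571). In HFD-338 against HFD-NS, where Ccr2 rose, Ccl2 differed by 0.20 ± 0.31 (edgeR adjusted p = 0.652).

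Cx3cr1, the receptor for Cx3cl1 on monocytes and monocyte-derived macrophages, read 0.266, 0.778 and 0.844 CPM in SD-NS, 3.97, 7.45 and 3.48 in HFD-NS, 24.9, 22.6 and 15.97 in HFD-338, 8.27, 3.57 and 3.86 in HFD-337, while HFD-Res had 1.07, 2.76 and 3.34. SD-NS was the lowest and HFD-338 the highest group without overlap. The rise on the diet was 3.09 ± 0.60 on the log2 scale (edgeR adjusted p = 0.00116) and the rise in HFD-338 was 2.10 ± 0.33 (edgeR adjusted p = 0.000119). Both held without any single library. The ligand Cx3cl1 was higher in HFD-338 too, but it had passed the filter on low counts largely through that group.

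Cxcr4, the receptor for Cxcl12 on many leukocytes, read 1.20, 1.75 and 2.25 CPM in SD-NS, 3.62, 2.24 and 2.74 in HFD-NS, 8.67, 8.91 and 8.64 in HFD-338, 2.36, 2.65 and 3.65 in HFD-337, with HFD-Res at 0.428, 0.230 and 1.31. The HFD-338 libraries were close together and far above the rest, and HFD-Res lay below every HFD-NS library. It rose in HFD-338 by 1.60 ± 0.28 on the log2 scale (edgeR adjusted p = 0.000181) and fell in HFD-Res by 1.93 ± 0.43 (edgeR adjusted p = 0.00396). Both calls held without any single library, the second at -3.04 without HFD-Res replicate 34, while Cxcl12 differed by -0.03 ± 0.13 and -0.02 ± 0.13 in these comparisons. Cxcr4 was the 1 receptor called in HFD-Res.

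Xcr1, the receptor of cross-presenting dendritic cells, read 0.399, 0.194 and 0.563 CPM in SD-NS, 0.584, 1.37 and 1.27 in HFD-NS, 4.67, 2.10 and 4.06 in HFD-338, 1.38, 0.807 and 0.203 in HFD-337, as against 0.428, 0.690 and 0.726 in HFD-Res. It rose in HFD-338 by 1.74 ± 0.42 on the log2 scale (edgeR adjusted p = 0.00289), and no library of HFD-338 overlapped the rest. Xcr1 passed the filter on low counts largely through HFD-338, which held 89 of its 148 counts. Its ligand Xcl1, made by T and natural killer cells, ran from 0.495 to 1.14 CPM in HFD-338 and from 0.422 to 0.621 in HFD-NS.

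Cxcr6, the receptor for Cxcl16 on liver-resident T and natural killer T cells, read 0.266, 0 and 1.13 CPM in SD-NS, 0.467, 1.49 and 1.69 in HFD-NS, 3.19, 1.98 and 1.83 in HFD-338, 1.77, 0.461 and 0.609 in HFD-337, while HFD-Res had 0.856, 0.460 and 1.16. All HFD-338 libraries lay above all others, but the difference from HFD-NS did not pass (0.93 ± 0.52, edgeR adjusted p = 0.163). Ccr1, the receptor for Ccl6 and Ccl9, read 0.266, 0.389 and 0.563 CPM in SD-NS, 0.234, 2.36 and 0.843 in HFD-NS, 3.08, 2.598 and 2.09 in HFD-338, 1.18, 0.576 and 0.406 in HFD-337, with HFD-Res at 0, 0.920 and 0.291. Its difference between HFD-338 and HFD-NS did not pass either (1.20 ± 0.53, edgeR adjusted p = 0.082).

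Cxcr5, the receptor for Cxcl13 on B and follicular helper T cells, was the 1 receptor that rose in HFD-337. It read 1.46, 0.972 and 2.53 CPM in SD-NS, 2.34, 1.24 and 1.69 in HFD-NS, 2.74, 1.61 and 1.96 in HFD-338, 7.09, 5.07 and 6.90 in HFD-337, as against 2.36, 2.53 and 2.76 in HFD-Res. HFD-337 stood above every other library, by 1.82 ± 0.31 on the log2 scale against HFD-NS (edgeR adjusted p = 9.01e-05), and the call held without any single library. B or plasma cell markers summed to 4.53 to 9.64 TPM in HFD-337 and 4.38 to 5.51 in HFD-NS, and none of the 2 that were tested was called. Cxcr5 shares 120 bases, 4.55% of its exon length, with Bcl9l, which had 3674 counts and rose in HFD-337 by 0.40 ± 0.10 on the log2 scale (edgeR adjusted p = 0.00328). The part of shared reads in the change of Cxcr5 was not tested.

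**Figure D4:**
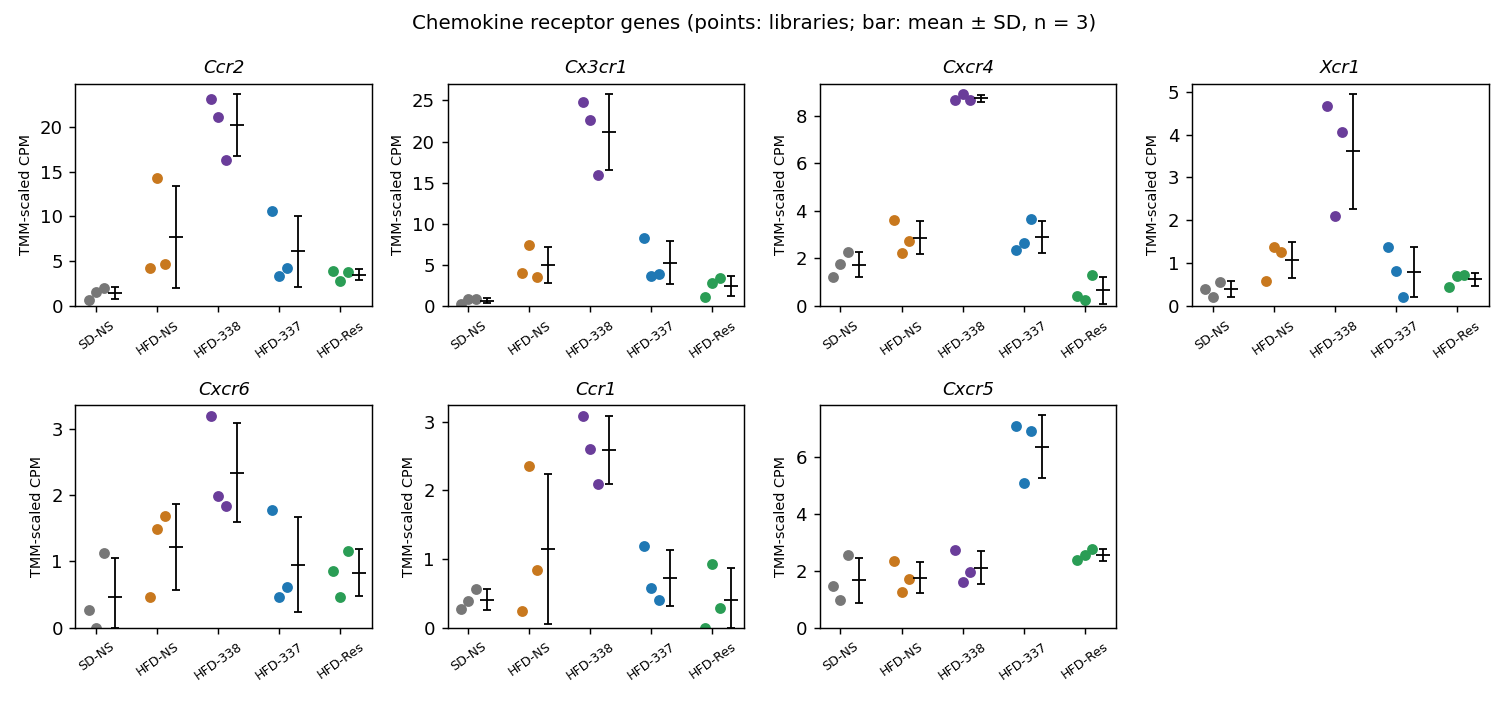
TMM-scaled CPM of 7 tested receptor genes, 1 point per library, with the mean and SD of 3 libraries beside each group (lower bars end at 0). HFD-338 is the highest group for all but Cxcr5, which is highest in HFD-337, where its libraries read 5.07 to 7.09 CPM.

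HFD-337 and HFD-338 both had Stk25 below HFD-NS, and Stk25 was lower by a further 0.29 on the log2 scale in HFD-337 (edgeR adjusted p = 0.045). Between them, all 8 tested receptors were called, 7 lower in HFD-337 and Cxcr5 higher, where 58.4% of all genes were called. Xcr1 and Ccr1 had passed the filter largely through HFD-338, so the count of 8 is partly shaped by that filter. The lower receptors included, each with no overlap between the groups, Xcr1 (log2 fold change -2.15), Cx3cr1 (-2.06), Ccr1 (-1.86), Ccr2 (-1.80), Cxcr4 (-1.61) and Cxcr6 (-1.40). Cxcr6 passed narrowly (edgeR adjusted p = 0.0458) and was lost without HFD-338 replicate 17 or 18 or HFD-337 replicate 26 or 27, with an edgeR adjusted p of 0.0534 to 0.214. DESeq2 lost the Cxcr6 call too. Without HFD-337 replicate 23, Cxcr6 was at -2.14 and Ccr2 at -2.43. Ccr1 was lost without HFD-337 replicate 26 (edgeR adjusted p = 0.0644). Xcr1, Cx3cr1, Ccr2, Cxcr4 and Cxcr5 kept their calls without any single library, HFD-337 replicate 23 included.

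Among the 18 tested ligands, 6 were lower in HFD-337 than in HFD-338: Cxcl14 (-2.62), Ccl2 (-2.52), Cxcl16 (-2.35), Cx3cl1 (-1.87), Ccl6 (-1.74) and Cxcl12 (-0.35). The 4 that were higher were Cxcl11 (1.76 ± 0.26, edgeR adjusted p = 1.35e-05), Ccl25 (1.01), Ccl27a (1.00) and Cxcl10 (0.74). Without HFD-337 replicate 26, Cxcl10 (edgeR adjusted p = 0.0569), Cx3cl1 (edgeR adjusted p = 0.0565) and Cxcl12 (edgeR adjusted p = 0.138) did not pass. Cxcl12 was also lost without HFD-338 replicate 17 (edgeR adjusted p = 0.146) or HFD-337 replicate 27 (edgeR adjusted p = 0.073). Without HFD-337 replicate 23, Cx3cl1 was at -2.79. Cx3cl1 had passed the filter on low counts largely through HFD-338. Mean Ccl9 was 65.1 CPM in HFD-337 against 59.97 in HFD-338, a difference of 0.12 ± 0.14 (edgeR adjusted p = 0.454).

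Markers of other cell types moved with these genes. In HFD-338 against HFD-NS, 8 of 10 monocyte or monocyte-derived macrophage markers and 5 of 7 dendritic cell markers (Xcr1 among them) rose. In that comparison 4 of 10 Kupffer cell markers and 7 of the 7 tested bile duct markers rose too. None of these lists had a member that fell. HFD-338 held 61 of the 75 counts of Cftr, 70 of the 96 of Krt7 and 118 of the 175 of Krt19, all bile duct markers. It also held 61 of the 85 counts of the dendritic cell marker Flt3. These markers thus passed the filter largely through HFD-338, and the bile duct and dendritic cell counts are partly shaped by it. Of the stellate cell markers 5 of 10 rose and 0 fell. Of the sinusoidal endothelial markers 7 of 10 fell and 0 rose, with a median of -0.87 on the log2 scale. Over all genes, 18.9% rose and 17.9% fell in HFD-338 against HFD-NS. Monocyte markers summed to 1140 to 1470 TPM in HFD-338 and 154 to 245 in HFD-NS. Gpnmb, a glycoprotein of lipid-laden macrophages, rose by 2.49 on the log2 scale (edgeR adjusted p = 7.04e-06). Bile duct markers summed to 815 to 915 TPM in HFD-338 and 47.7 to 64.7 in HFD-NS, and Epcam, an epithelial adhesion protein, rose by 4.45 (edgeR adjusted p = 1.77e-08). Spp1 (osteopontin), which is on both the monocyte and the bile duct list, averaged 754 TPM in HFD-338 and 49.6 in HFD-NS and made up much of both sums. Without it the monocyte markers summed to 317 to 763 TPM in HFD-338 and 113 to 192 in HFD-NS, and the bile duct markers to 91 to 107 and 6.97 to 10.2. The part of these cells in the receptors' changes was not tested.

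In HFD-337 the monocyte marker sum was 393 TPM in replicate 23 and 96.2 and 152 TPM in the other two, Spp1 included, and replicate 23 was also the library of its group with the most Ccr2, Cx3cr1, Cxcr6 and Ccr1. Kupffer cell markers summed to 79.3 to 198 TPM there and 228 to 303 in HFD-NS, with 2 of 10 lower and 0 higher. On the diet, 3 of 10 monocyte markers rose and 0 of 10 Kupffer cell markers were called. In HFD-Res, 1 of 10 monocyte markers fell and 0 of 10 Kupffer cell markers were called. In HFD-337 against HFD-338, 8 of 10 monocyte, 8 of 10 Kupffer cell, 5 of 7 dendritic cell and 7 of 7 bile duct markers were lower, and 0 were higher. The dendritic cell and bile duct counts are again partly shaped by the filter on low counts. Over all genes, 29.6% were lower in HFD-337 than in HFD-338. Against HFD-NS 22.8% fell in HFD-337 and 6.74% in HFD-Res, and 12% rose on the diet. Of the neutrophil markers, Ly6g and Ngp had no count in SD-NS, Camp none in HFD-NS, and all 3 none in HFD-Res.

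**Figure D5:**
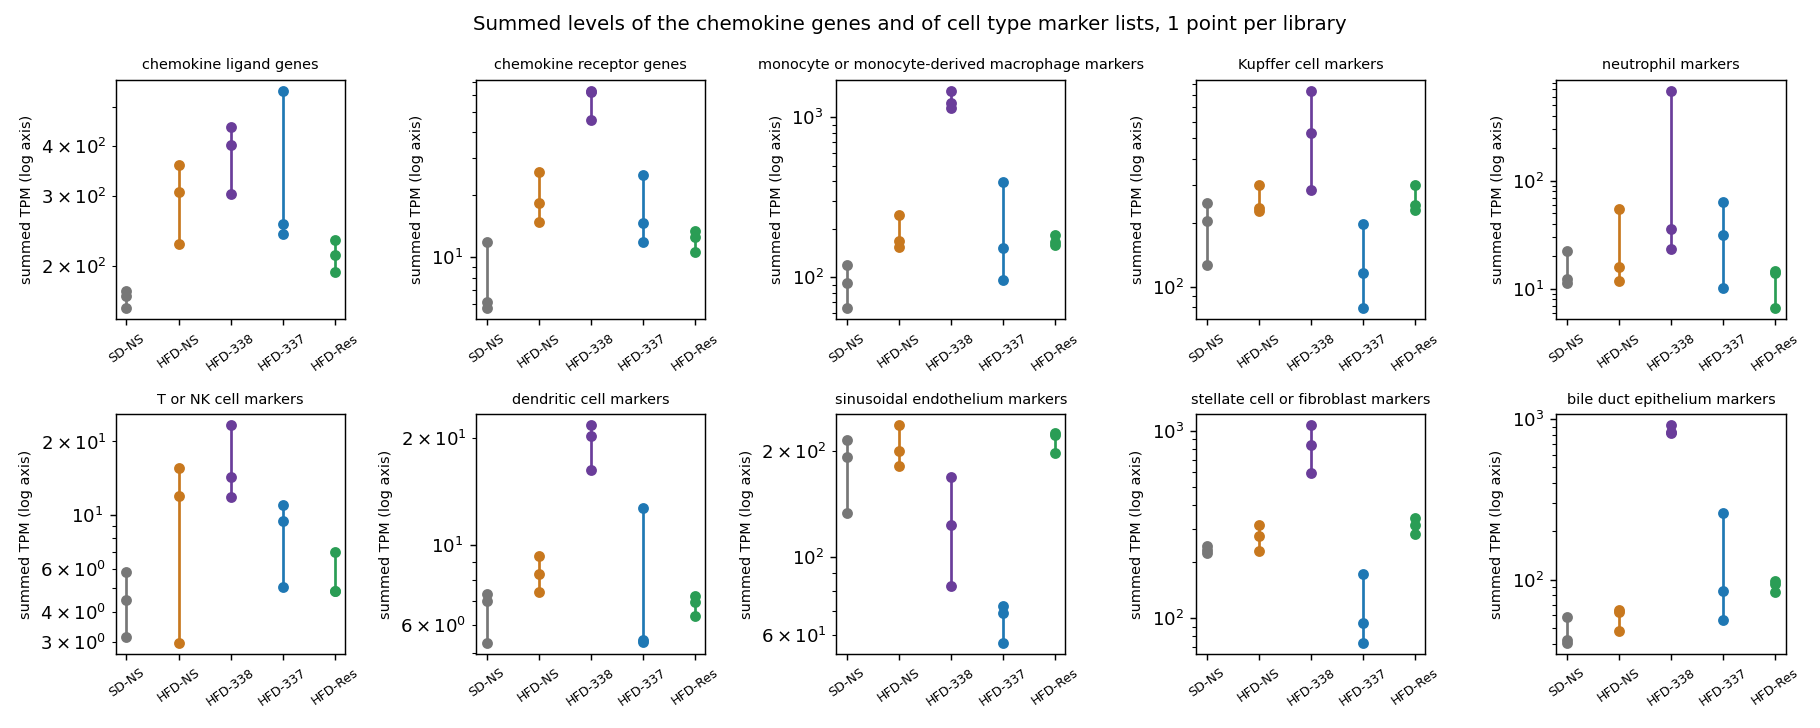
Summed TPM of the 40 ligand genes, the 18 receptor genes and 8 cell type marker lists on log axes, 1 point per library, joined within each group. The receptor sum and the monocyte, dendritic cell and bile duct sums are all highest in HFD-338, and 1 HFD-338 library reaches 683 TPM of neutrophil markers.

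Genes around the chemokine system were described from lists. Of 9 related genes outside the name rule, 7 were tested. On the diet 3 rose and 1 fell, in HFD-338 3 rose, and in HFD-337 1 rose and 2 fell. In HFD-Res 0 were called, and 5 were lower in HFD-337 than in HFD-338. Over all genes, the shares called in these 5 comparisons were 28.1%, 36.8%, 47.2%, 13% and 58.4%. Pf4, a platelet CXC chemokine, rose on the diet (2.04, edgeR adjusted p = 0.0162) and in HFD-338 (1.42, edgeR adjusted p = 0.00489). Ackr2 and Ackr4 are atypical receptors that take up and clear chemokines without signalling through G proteins. In HFD-337 Ackr2 fell by 2.33 on the log2 scale (edgeR adjusted p = 0.000413) and Ackr4 fell by 1.97 (edgeR adjusted p = 1.44e-06), and both were lower than in HFD-338 as well. Ackr4 also fell on the diet, by 0.82 (edgeR adjusted p = 0.00233).

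Of 23 genes that carry the signal of chemokine receptors, all tested, 3 rose and 0 fell on the diet. In HFD-338 11 rose and 2 fell, in HFD-337 1 rose and 9 fell, and in HFD-Res 0 rose and 1 fell. Their medians were 0.60, 0.77, -0.57 and -0.30 on the log2 scale. The shares called were 13%, 56.5%, 43.5% and 4.35%, against 28.1%, 36.8%, 47.2% and 13% of all genes. Among these comparisons only HFD-338 had a share above that of all genes. In HFD-337 against HFD-338, 18 were lower and 1 higher, with a median of -1.31. There 82.6% of the list and 58.4% of all genes were called. Pik3cg, the phosphoinositide kinase of leukocyte chemotaxis, rose in HFD-338 by 1.501 (edgeR adjusted p = 0.00179) and fell in HFD-337 by 1.37 (edgeR adjusted p = 0.0256). Rgs1, which damps G protein signals, fell in HFD-337 by 1.97 (edgeR adjusted p = 0.000824).

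Of 17 tested genes of NF-kappaB, TNF and IL-1 signalling, 3 rose and 2 fell on the diet, and 5 rose and 1 fell in HFD-338. In HFD-337 3 rose and 4 fell, and in HFD-Res 0 rose and 2 fell. The shares called were 29.4%, 35.3%, 41.2% and 11.8%, close to or below the 28.1%, 36.8%, 47.2% and 13% of all genes. Tnfaip3, an NF-kappaB target that feeds back on the pathway, rose by 1.13 on the diet (edgeR adjusted p = 0.00468). It fell by 1.03 on the log2 scale in HFD-337 (edgeR adjusted p = 0.00322) and fell by 1.11 in HFD-Res (edgeR adjusted p = 0.00861). In HFD-338 the largest rises were those of Traf1, an adaptor of TNF receptors (1.40, edgeR adjusted p = 0.0281), and Vcam1, an endothelial adhesion molecule for leukocytes (0.90, edgeR adjusted p = 0.00706). Vcam1 had the largest fall of the list in HFD-337 (-1.45, edgeR adjusted p = 0.000512).

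Of 12 tested genes of interferon signalling, 2 rose and 0 fell on the diet. Irf1, a transcription factor of the interferon response, rose by 0.99 on the log2 scale (edgeR adjusted p = 0.00843). In HFD-337, 4 rose and 3 fell; Irf7 rose by 1.54 (edgeR adjusted p = 0.000253), Stat2 by 1.14 (edgeR adjusted p = 3.64e-08) and Irf9 by 0.88 (edgeR adjusted p = 2.13e-06). The 3 that fell were the receptor kinases Jak2 (-0.72) and Jak1 (-0.59) and the receptor chain Ifngr2 (-0.46). In HFD-Res 3 rose (Irf7, Irf9 and Stat2) and 2 fell, and in HFD-338 4 rose and 1 fell. The shares called were 16.7% on the diet, 58.3% in HFD-337, 41.7% in HFD-Res and 41.7% in HFD-338. Over all genes they were 28.1%, 47.2%, 13% and 36.8%. Ifng itself had 4 counts in the 15 libraries.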

How the data were processed

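RNA from 15 mouse liver libraries in 5 groups of 3 was sequenced after selection of polyadenylated RNA, per the labels' protocols. Build mm39, STAR 2.7.10b, Trim Galore 0.6.10, featureCounts 2.0.1 and, without its role, Bowtie 1.3.1 appear in the submitters' processing notes. The deposited file gives counts of exon reads per gene, regardless of strand per the file headers, with a read counted for every gene it overlaps, so overlapping genes share reads and close copies are uncertain. The deposited exon lengths gave TPM, and 15 deposited TPM columns were not used.

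Genes passing filterByExpr (13189) were TMM-scaled and fitted with edgeR 4.0.16 in R 4.3.3 (robust quasi-likelihood, 1 fit of 15 libraries), with Benjamini-Hochberg adjustment over all genes and calls under 0.05. The common biological coefficient of variation was 0.134. SDs are over 3 libraries, values after ± beside a log2 fold change are SEs, and fold bounds use 3 counts over the empty group, which covers counting error only. Tested on simulated counts of 13189 genes, the procedure recovered 59% of 2-fold and 22% of 1.5-fold changes in HFD-NS against SD-NS, and 81% and 34% in HFD-Res against HFD-NS. Each simulation changed 200 genes, all averaging at least 1 CPM, whereas 3711 genes were called on the diet in the data. The rates therefore do not give the power for chemokine and receptor genes below that level. Alternatives were RLE size factors, no filter, DESeq2 1.42.0, limma-voom (limma 3.58.1), fits of 2 groups and leaving out each library.

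The genes, lists and tests were chosen with earlier results of these data known. Values in every library are given for genes called in at least 1 comparison with a group mean of at least 1 CPM and for the best known liver chemokines and receptors. Other list genes were named from the 3 largest called changes per list, comparison and direction. Some Kupffer cell markers, Clec4f and Timd4 among them, were named outside that rule, to show the spread of their list. Of the listed markers, 9 of 10 for T or NK cells and 6 of 7 for B or plasma cells were found in the table. Protein sequences were not used here, and some single-gene results are not reported here, although the counts include those genes.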

Additional observations from a re-analysis of the deposited data

How the results depend on the processing

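Over the 5 comparisons there were 57 calls of single chemokine or receptor genes. Of these, 34 held in all 11 settings, 23 were lost in at least 1, and 0 changed direction. The settings were RLE size factors, no filter, DESeq2, limma-voom, a fit of the 2 groups and 6 left-out libraries. On the diet, Ccl3, Ccl5, Cxcl5 and Cxcl13 were tested in only 10 of them. Some calls described above by left-out libraries alone were also lost by method. On the diet these were Cxcl1 with limma-voom, Ccl5 with limma-voom and without the filter, and Cxcl13 without the filter. The fit of the 2 groups lost Cxcl12 and Cxcl16 in HFD-337 and Ccr2 in HFD-338, all against HFD-NS. It also lost Cxcl12 in HFD-337 against HFD-338. In HFD-NS against SD-NS, leaving out 1 library gave 7 to 14 called chemokine and receptor genes against 12. In HFD-337 against HFD-NS the fit of the 2 groups called 6 against 10, testing 20 of the genes in place of 26, and leaving out 1 library gave 7 to 11. In HFD-Res against HFD-NS, leaving out 1 library gave 2 to 6 against 6, with 2 lacking HFD-Res replicate 30. Over all genes in that comparison it gave 1134 to 1467 against 1709, with 1134 lacking HFD-Res replicate 34. The cause of the lower counts was not tested beyond the loss of a sample. The other counts of calls stayed within 1.5 times. Where a group kept 2 libraries, its spread was pooled with the other groups. Depth limits the receptors most: 7 of the 15 with 10 or more counts were too low to test. No paired analysis was possible because the groups share no replicate numbers.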
